A study of Homo sapiens with 12 samples.

Results

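Human kidney cells that carried a short hairpin RNA against YAP1 and were exposed to hydrogen peroxide were compared with untreated cells that carried a control hairpin, by bulk RNA-seq across all genes. The comparison took 8 of the 12 libraries of the series by their labels: 4 libraries of the group shYAP1_H2O2 and 4 of the group shNC. Both groups were HK-2, a line of human proximal tubule epithelial cells immortalised with papillomavirus oncogenes, which act on p53 and RB. Cells of shYAP1_H2O2 had the genotype label for the YAP1 hairpin and received H2O2 at 150 µM for 48 h, and cells of shNC had the control hairpin and the treatment label of a control. The remaining 4 libraries, shNC_H2O2, had the control hairpin with the same dose and time of H2O2, and they enter the fitted model, the chromosome windows and the background counts, and their levels are set beside the others for named genes. The hairpin sequence, its vector, and whether a hairpin line was 1 clone or a pool are not given in the sources that were read. The growth protocol names HK-2 cells and the extraction protocol names kidney tissue. No label ties a library to a culture of its own, and p-values therefore refer to the spread among libraries, which may be technical. Because hairpin and oxidant both differ between the 2 groups, their parts in any change cannot be told apart. In bulk RNA, fewer cells of a kind and less RNA per cell cannot be told apart either.

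YAP1 is a transcriptional co-activator that enters the nucleus when the kinases of the Hippo pathway are inactive, binds TEAD factors there and raises genes of growth, adhesion and matrix, CCN1 and CCN2 among them. H2O2 is an oxidant that damages DNA, lipids and proteins. Tubule cells answer such damage with antioxidant, chaperone and p53 programmes, and after lasting stress they may stop dividing in the state called senescence, which is marked by CDK inhibitors, loss of lamin B1 and secretion of cytokines. The title of the series names YAP1, oxidative stress and tubular senescence.

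The 8 libraries held 33509474 to 46582873 counts, and the floor of detection was set at 3 counts, which were 0.0644 to 0.0974 CPM over the 12 libraries. CPM are counts scaled to a common library size with TMM factors, and values after ± are SD over 4 libraries for CPM and SE for log2 fold changes. In 1 library of each group, shNC replicate 4 and shYAP1_H2O2 replicate 3, mitochondrially encoded genes took 13.86% and 11.34% of counts, against 4.54% to 5.64% in the other 10 libraries. Chi-square statistics per degree of freedom were 104 to 179 in pairs that included either of them and 2.93 to 5.73 in the remaining pairs of the same group. Both were kept, and counts without both are given as "without both libraries" beside gene lists, the genes that rose first and those that fell second. Where a sentence gives a pair of levels without naming groups, shNC comes first and shYAP1_H2O2 second, each with replicates 1 to 4 in order. Proximal tubule markers summed to 357 to 422 CPM in shNC and 345 to 396 CPM in shYAP1_H2O2. DPP4 (means of 256 and 254 CPM), SLC4A4 (64.7 and 47.9 CPM) and MME (35.4 and 38.7 CPM) made most of both sums. Only 7 of the 19 markers had a mean of at least 1 CPM in each group. Of the defining markers of that cell type, the endocytic receptors LRP2 and CUBN had mean levels of 0.024 and 0.249 CPM in shNC, and SLC22A8 and SLC5A1 were at 0 in every library of both groups. Endothelial markers summed to at most 7.55 CPM and immune markers to at most 37.4 CPM. Fibroblast and pericyte markers summed to 117 to 124 CPM in shNC and 184 to 199 CPM in shYAP1_H2O2, with COL1A2 at 0 in both groups. LUM (means of 98.8 and 149 CPM) and RGS5 (means of 7.09 and 28.2 CPM) made most of that difference, while COL1A1 was at 10.1 CPM in both groups and PDGFRB at 2.1 and 1.54 CPM. The part of such cells in the changes below was not tested.

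YAP1 itself (ENSG00000137693, GRCh38 chromosome 11, 102110461 to 102233423) was read first as a check of the hairpin label. The 4 shNC libraries had 136, 130.2, 140.4 and 124 CPM and the 4 shYAP1_H2O2 libraries 131, 135, 111 and 136 CPM. The ranges overlapped, and YAP1 was not detectably lower in the libraries labelled shYAP1_H2O2 (log2 fold change -0.05 ± 0.07 with a 95% interval from -0.20 to 0.10, adjusted p = 0.636 by edgeR's quasi-likelihood test, two-sided exact permutation p = 0.6 over 70 assignments, of which the smallest possible p is 0.0286). Against shNC_H2O2, where it stood at 156 ± 5.19 CPM, its log2 fold change was -0.29 (adjusted p = 0.00346). WWTR1, the paralog known as TAZ, was at 335 ± 33.3 CPM in shNC and 370 ± 24.4 CPM in shYAP1_H2O2 and did not pass either (0.14 ± 0.07, adjusted p = 0.148), although it passed as higher without shNC replicate 4 (0.21, adjusted p = 0.00833), without both libraries (0.17, adjusted p = 4.3e-04) and when scaled by library totals alone (0.16, adjusted p = 0.0448). Every statement below therefore concerns the libraries labelled shYAP1_H2O2, in which a lower YAP1 mRNA than in shNC was not detected.

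Changes were also read by chromosome region. Genes that averaged 5 CPM or more were grouped in windows of 20 Mb, and the 151 windows with at least 20 such genes had median log2 fold changes of -0.17 to 0.14 between shYAP1_H2O2 and shNC, with 0 windows beyond 0.2 in either direction. Between shNC_H2O2 and shNC the window medians ran from -0.74 to 0.50 and 32 lay beyond 0.2, and between shYAP1_H2O2 and shNC_H2O2 they ran from -0.50 to 0.66 and 28 lay beyond 0.2. Values against shNC_H2O2 therefore carry regional shifts of that group, and the window median of shNC_H2O2 minus shNC is given beside a gene set against that group where it lies beyond 0.2.

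**Figure D1:**
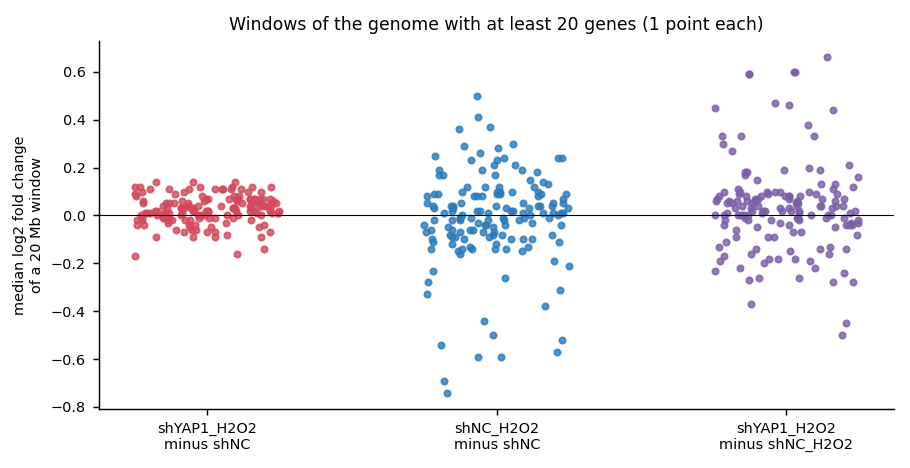
Median log2 fold change of genes in windows of 20 Mb (y axis) for the 3 contrasts (x axis), 1 point per window with at least 20 genes of at least 5 CPM. In shYAP1_H2O2 minus shNC all 151 medians lie between -0.17 and 0.14, and both contrasts that involve shNC_H2O2 spread further.

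Of 19268 genes tested, 6265 (32.5%) were called at an adjusted p under 0.05. Of these, 3362 (17.4% of tested genes) were higher and 2903 (15.1%) were lower in shYAP1_H2O2, and 625 rose and 494 fell at least 2-fold. The median log2 fold change of all tested genes was 0.00, and called genes had a median absolute change of 0.50. In 5724 genes (29.7% of those tested) the 4 values of one group lay wholly above the 4 of the other, and 5119 of these were called. Without both libraries 4691 genes were higher and 4455 lower, and 96.0% of the 6265 called genes kept their call and direction. Members of each gene list below are read against these shares: 17.4% higher, 15.1% lower and a median of 0.00. These shares hold for the main fit only and for tested genes of all levels. The share called among abundant genes, to which many list members belong, was not counted. Calls over all genes were more numerous without both libraries, and also without shNC replicate 4 (7298 called) or shYAP1_H2O2 replicate 3 (6842 called) alone. A larger list count in those fits is therefore not by itself a result about the list.

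**Figure D2:**
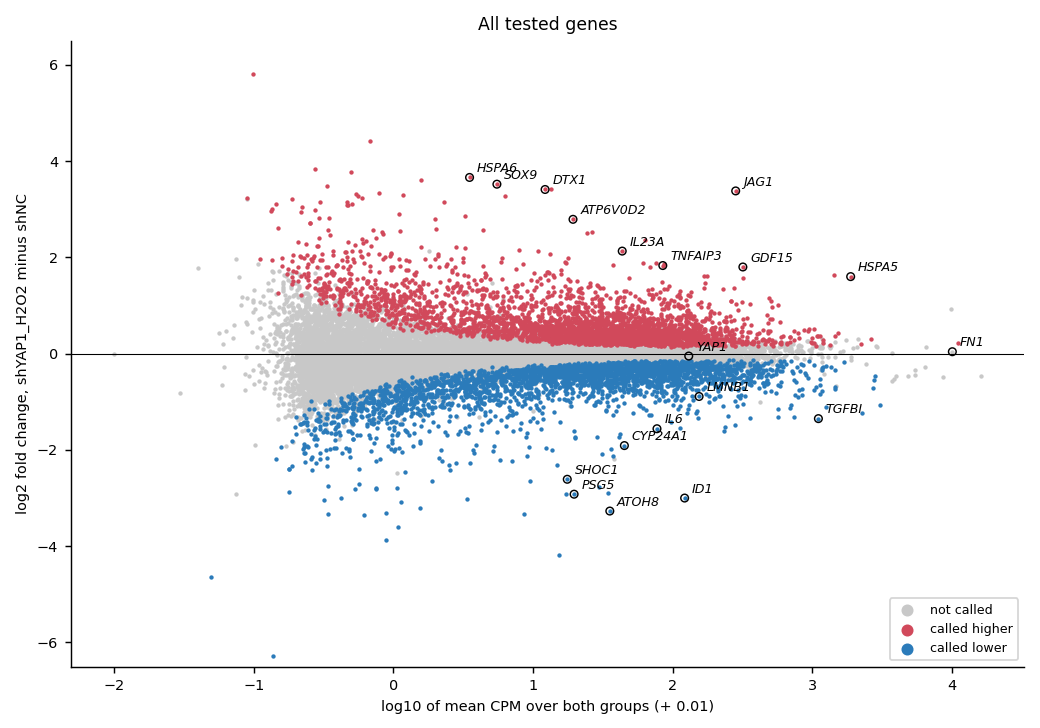
Log2 fold change of shYAP1_H2O2 minus shNC (y axis) against log10 of the mean CPM of both groups plus 0.01 (x axis), 1 point per tested gene, with 19 genes circled and named. JAG1 and HSPA5 stand out among abundant genes that rose and ID1 among those that fell, and YAP1 lies at -0.05.

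Among the 12 largest rises was HSPA6 (ENSG00000173110), a strictly stress-induced HSP70, which was at 0.534, 0.641, 0.603 and 0.261 CPM in shNC and at 7.17, 4.59, 6.37 and 7.8 CPM in shYAP1_H2O2. It rose 12.7-fold (log2 fold change 3.66 ± 0.28, adjusted p = 1.0e-07), and its level in shNC_H2O2 was 2.25 ± 0.721 CPM, in a window with a median of -0.50 for that group. SOX9 (ENSG00000125398, chromosome 17, 72121020 to 72126420), a transcription factor of tubule progenitors and of repair after injury, was at 0.831, 1.15, 0.83 and 0.689 CPM in shNC and 10.7, 8.1, 12.5 and 9.18 CPM in shYAP1_H2O2, an 11.5-fold rise (3.52 ± 0.16, adjusted p = 7.1e-10). Every library of shYAP1_H2O2 lay below those of shNC_H2O2, at 63.6 ± 4.3 CPM, from which the group differed by -2.65 (adjusted p = 2.9e-10). DTX1, an E3 ligase that acts on NOTCH receptors, rose from 2.09 ± 0.339 to 22.3 ± 2.16 CPM (3.41 ± 0.12, adjusted p = 6.5e-11). NEURL1, an E3 ligase that acts on NOTCH ligands, rose from 1.26 ± 0.391 to 7.48 ± 0.862 CPM (2.56 ± 0.20). Further rises of this size were ITPKA, an inositol trisphosphate kinase, from 7.89 ± 2.29 to 45.3 ± 8.14 CPM, ERFE, the erythroferrone that acts on hepcidin, from 20.4 ± 1.22 to 105 ± 25.8 CPM, and NR1D1, the clock repressor REV-ERB alpha, from 7.35 ± 1.97 to 41.7 ± 17.4 CPM. NR1D1 had its highest value, 67.6 CPM, in the shYAP1_H2O2 library of high mitochondrial share, against 31.4 to 35.4 CPM in the other 3. LHFPL3 (3.28), the HMG-box factor TOX2 (2.86) and the serotonin receptor HTR1D (2.20) completed the 12 largest rises together with JAG1 and ATP6V0D2, described below.

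Among the largest falls, ID1 and ATOH8, both genes that BMP signals raise, stood at high levels in untreated cells. ID1 (ENSG00000125968, chromosome 20, 31605283 to 31606515), an inhibitor of basic helix-loop-helix factors, was at 229.8, 231, 218 and 186 CPM in shNC and 28.6, 18.7, 34.6 and 26.6 CPM in shYAP1_H2O2, 7.98-fold lower (-3.0 ± 0.14, adjusted p = 2.3e-09). The groups were far apart, and shNC_H2O2 lay between them at 57.8 ± 2.58 CPM. ATOH8, a basic helix-loop-helix factor, fell from 64.2 ± 8.23 to 6.65 ± 0.442 CPM (-3.27 ± 0.11, adjusted p = 4.4e-11), and it stood at 1.36 ± 0.218 CPM in shNC_H2O2, in a window with a median of 0.23 for that group. SHOC1, known for its part in meiotic crossing over, fell from 30.2 ± 2.1 to 4.93 ± 0.8 CPM (-2.61 ± 0.12), and the noncoding HCG22 fell from 15.7 ± 0.978 to 1.56 ± 0.425 CPM (-3.34 ± 0.21). Among the pregnancy-specific glycoproteins PSG5, PSG8, PSG1 and PSG3 the log2 fold changes were -2.92, -2.92, -2.90 and -2.64. These paralogs are nearly identical in sequence and their single values are uncertain, since counting could split their reads. SST, the hormone somatostatin, was at 11, 10.9, 9.45 and 14.9 CPM in shNC and 2.05, 0.807, 4.77 and 2.25 CPM in shYAP1_H2O2 (-2.23 ± 0.40, adjusted p = 0.0021), and had 0 counts in all 4 shNC_H2O2 libraries, for which its window had a median of -0.54. The lymphotoxin gene LTB fell from 5.82 ± 1.65 to 1.2 ± 0.546 CPM. The carbonic anhydrase gene CA9 (-2.20) and the glycosyltransferase gene B3GNT4 (-2.12) have 38.5% and 20.7% of their exon bases in overlapping genes and are uncertain to that extent.

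Most genes of the unfolded protein response rose. In this response, unfolded proteins in the endoplasmic reticulum activate the sensors IRE1, PERK and ATF6, which raise chaperones, folding enzymes and the degradation of misfolded proteins. Of 22 tested members 16 rose and 1 fell, with a median log2 fold change of 0.51, and without both libraries 17 rose and 3 fell. The sensor gene ERN1, which encodes IRE1 alpha, rose from 15.9 ± 0.855 to 42 ± 2.72 CPM (1.40 ± 0.08, adjusted p = 1.1e-08). XBP1 (ENSG00000100219), the factor that IRE1 splices, was at 87.8, 88.4, 96.2 and 87 CPM in shNC and 167, 183, 155 and 169 CPM in shYAP1_H2O2 (0.91 ± 0.06, adjusted p = 3.5e-08). HSPA5 (ENSG00000044574, chromosome 9, 125234853 to 125241330), the main HSP70 chaperone of the endoplasmic reticulum, was at 954, 926, 1047 and 806 CPM in shNC and 2856, 3451, 2083 and 2938 CPM in shYAP1_H2O2. It rose 3.03-fold (1.60 ± 0.12, adjusted p = 1.1e-07), with its lowest value in the library of high mitochondrial share, and stood at 1484 ± 7.89 CPM in shNC_H2O2. The groups did not overlap for XBP1 or HSPA5, and both exceeded shNC_H2O2 as well (0.60 and 0.93, adjusted p = 1.3e-06 and 1.3e-05). DNAJB9, a co-chaperone of HSPA5, rose from 25.7 ± 2.99 to 63.9 ± 14 CPM (1.31 ± 0.14). The 1 member that fell was SEC61B, a subunit of the translocon (-0.23 ± 0.09, adjusted p = 0.0483), whose call was lost without any single library except shNC replicate 2, and whose change was -0.13 without shNC replicate 4.

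The endoplasmic reticulum stress element, CCAAT and CCACG spaced by 9 bases (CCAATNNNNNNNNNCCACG, searched on both strands), was chosen after the values were seen. It was present in the 250 bases before the start of 26 of 35116 genes (0.074%) in the RefSeq promoter table, and in 7 of the 21 promoters found there for the list, 4 of them of called genes. The promoters of HSPA5 and XBP1 are shown because these genes are the chaperone and the factor of the response, with the element in capitals (GRCh38.p14, 5′ to 3′ in the direction of the gene).
HSPA5 (chr9:125241344-125241593, minus strand): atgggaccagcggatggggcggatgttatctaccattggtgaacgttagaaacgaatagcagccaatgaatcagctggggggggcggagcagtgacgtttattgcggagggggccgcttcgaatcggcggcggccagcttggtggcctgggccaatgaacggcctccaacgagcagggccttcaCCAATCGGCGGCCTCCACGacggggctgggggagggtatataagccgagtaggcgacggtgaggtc
XBP1 (chr22:28800570-28800819, minus strand): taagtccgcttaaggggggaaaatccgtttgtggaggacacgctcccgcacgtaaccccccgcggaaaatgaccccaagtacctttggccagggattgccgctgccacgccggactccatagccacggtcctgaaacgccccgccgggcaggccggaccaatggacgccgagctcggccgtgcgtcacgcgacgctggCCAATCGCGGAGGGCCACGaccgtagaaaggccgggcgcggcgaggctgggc
In HSPA5 the element began 66 bases and in XBP1 52 bases before the start. A match describes the sequence and no binding was measured.

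The integrated stress response, in which phosphorylated eIF2 alpha favours translation of ATF4 and thereby raises genes of amino acid supply, had 17 of 29 tested members higher and 0 lower, with a median of 0.37. Without both libraries 19 rose and 3 fell, and without shNC replicate 4 alone 18 and 3. ATF4 itself (0.04), ASNS (0.32), CHAC1 (0.01), SLC7A11 (-0.04) and DDIT4 (-0.4) were among the 12 members not called in the main fit. CTH, the last enzyme of cysteine synthesis from methionine, was at 21.2, 22.1, 23.8 and 30.3 CPM in shNC and 67.4, 77, 74.1 and 70.7 CPM in shYAP1_H2O2 (1.57 ± 0.13, adjusted p = 2.9e-07), and all 4 treated libraries lay above all 4 untreated ones. DDIT3, the factor CHOP, rose from 39.7 ± 7.58 to 102 ± 14 CPM (1.35 ± 0.12, adjusted p = 1.0e-06), although 39.6% of its exon bases lie in other genes. SLC3A2, the heavy chain shared by several amino acid transporters, rose from 130 ± 29.2 to 330 ± 78.8 CPM (1.35 ± 0.19) with its lowest value of each group in the library of high mitochondrial share. A CARE motif, the site of ATF4 with CEBP factors (TGATGNAA, both strands, also chosen after the values were seen), was present in 5 of 25 promoters of the list and in 3.14% of all promoters. Only 1 of these 5 promoters belonged to a called gene.

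Cytosolic heat shock genes, which HSF1 raises when cytosolic proteins misfold, had 10 of 20 tested members higher and 0 lower (median 0.21), 17 higher and 1 lower without both libraries, and 12 and 1 without shYAP1_H2O2 replicate 3. HSPA1A, the inducible HSP70, was at 57.6, 60.6, 54.1 and 48.9 CPM in shNC and 131, 105, 112 and 116 CPM in shYAP1_H2O2 (1.07 ± 0.08, adjusted p = 9.3e-08). Its near-identical copy HSPA1B changed by 1.22 ± 0.12. Their single values are uncertain because reads of the copies cannot be assigned safely and 36.5% of HSPA1B exon bases overlap another gene. DNAJB1, the co-chaperone that serves HSP70, rose from 100 ± 3.45 to 174 ± 16.1 CPM (0.79 ± 0.07). MYC and genes of ribosome assembly had 13 of 29 tested members higher and 1 lower (median 0.23), with 12 and 4 and a median of 0.15 without shNC replicate 4, 9 and 0 without shYAP1_H2O2 replicate 2 and 17 and 4 without both libraries. MYC, which drives ribosome synthesis and growth, was at 331, 319.8, 324 and 416 CPM in shNC and 538, 574, 785 and 515 CPM in shYAP1_H2O2 (0.80 ± 0.12, adjusted p = 0.00015), with the highest value of each group in the library of high mitochondrial share. RCL1, which cleaves ribosomal RNA precursors, rose from 16.3 ± 0.77 to 29.7 ± 1.95 CPM. Of 32 proteasome genes 1 rose and 10 fell, a count that varied from 5 lower without shYAP1_H2O2 replicate 2 to 17 lower without shNC replicate 4, and was 6 without shNC replicate 1 or 2 (2 rose and 18 fell without both libraries).

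**Figure D3:**
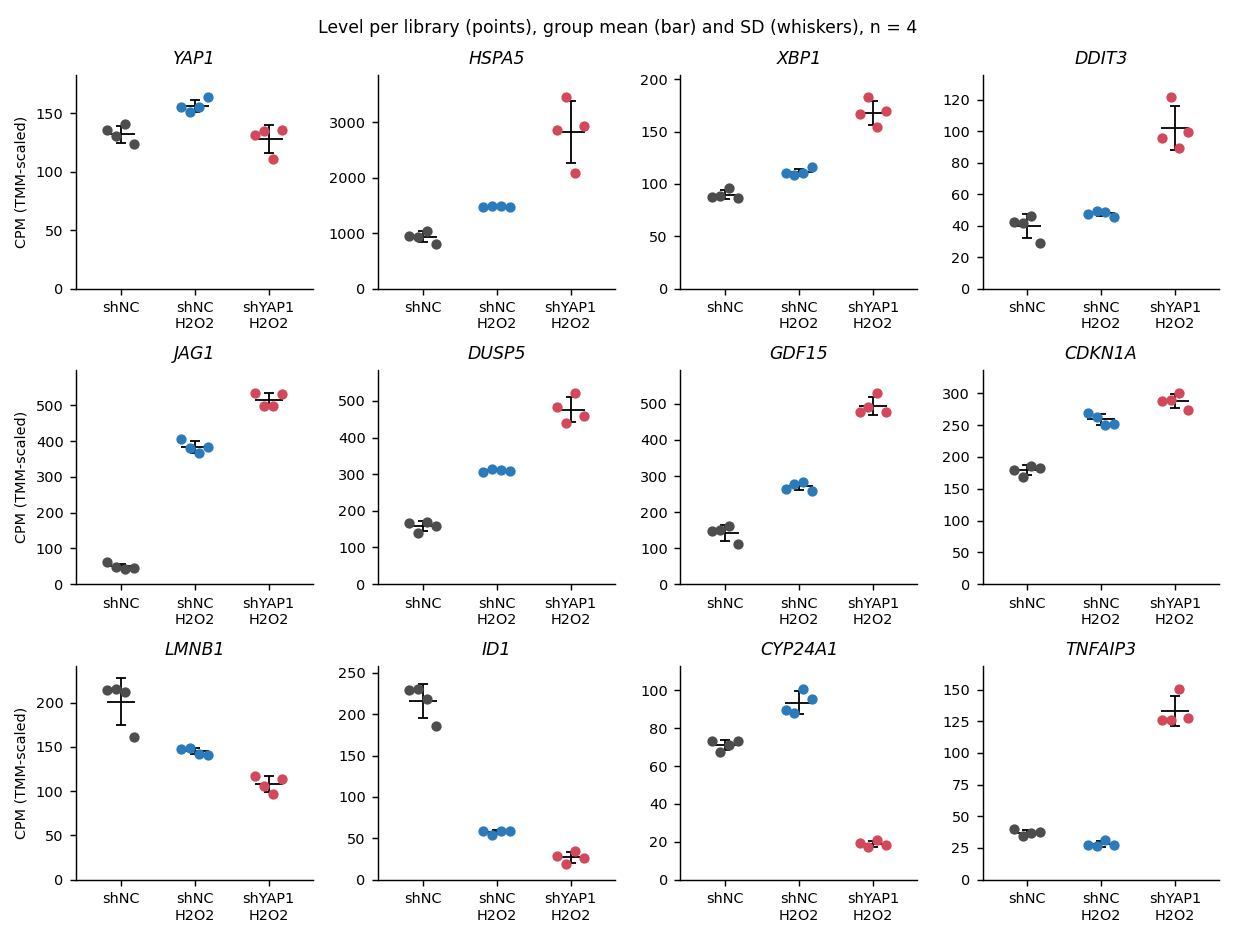
Level of 12 genes in each library (points, TMM-scaled CPM on a linear axis from 0) in shNC, shNC_H2O2 and shYAP1_H2O2, with the mean (bar) and SD (whiskers) of 4 libraries. YAP1 overlaps between shNC and shYAP1_H2O2, whereas HSPA5, JAG1, DUSP5, GDF15 and TNFAIP3 lie higher and ID1 and CYP24A1 lower in all 4 shYAP1_H2O2 libraries.

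Genes that ERK signalling raises, most of them inhibitors that feed back on it, were higher. Of 18 tested members 13 rose and 0 fell, with a median of 0.98, and 16 rose and 0 fell without both libraries. DUSP5 (ENSG00000138166, chromosome 10, 110497838 to 110511544), a nuclear phosphatase of ERK, was at 166, 139.6, 170.1 and 159 CPM in shNC and 482, 440.5, 522 and 460.1 CPM in shYAP1_H2O2, 3-fold higher (1.58 ± 0.07, adjusted p = 5.3e-10). SPRY1, an inhibitor of receptor tyrosine kinase signalling, was at 3.98, 4.24, 3.84 and 5.75 CPM and 12.4, 9.61, 15.2 and 11.7 CPM (1.45 ± 0.16, adjusted p = 5.9e-06), above shNC_H2O2 (3.04 ± 0.441 CPM) as well. DUSP4 rose too, but its shNC level of 0.0896 ± 0.0302 CPM lay at the floor of detection, so no fold is given. Of 26 immediate-early genes, the first to be transcribed after a stimulus, 10 rose and 2 fell (median 0.42, and 0.18 without shYAP1_H2O2 replicate 3). Without both libraries 10 rose and 8 fell and the median was 0.21, and without shNC replicate 4 or shYAP1_H2O2 replicate 3 alone 9 rose and 5 or 4 fell. EGR3 rose from 3.65 ± 1.36 to 13.2 ± 6.1 CPM (1.87 ± 0.31) and KLF4 from 11.9 ± 3.23 to 30.4 ± 1.47 CPM (1.35 ± 0.14). KLF2, a factor best known from endothelium, rose from 3.71 ± 0.762 to 8.49 ± 1.54 CPM. FOSL2, a subunit of AP-1, fell from 441 ± 6.19 to 280 ± 10.1 CPM (-0.66 ± 0.05, adjusted p = 1.5e-07).

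NOTCH signalling passes between neighbouring cells, when a ligand such as JAG1 on one cell releases the intracellular part of a receptor on the next. The ligand JAG1 (ENSG00000101384, chromosome 20, 10637684 to 10673999) was at 60.7, 49.1, 43.1 and 45.9 CPM in shNC and 534, 498, 498 and 531 CPM in shYAP1_H2O2, 10.4-fold higher (3.38 ± 0.09, adjusted p = 7.7e-12). It stood at 384 ± 16.5 CPM in shNC_H2O2. Of 18 tested members of the pathway 7 rose and 2 fell (median 0.26, and up to 0.39 without shNC replicate 3 or shYAP1_H2O2 replicate 2). The receptor gene NOTCH3 fell from 21 ± 0.696 to 14.3 ± 1.73 CPM (-0.55 ± 0.10, adjusted p = 0.00074). NRARP, a target and feedback inhibitor of NOTCH, rose from 2.49 ± 0.381 to 6.3 ± 0.493 CPM (1.34 ± 0.12, adjusted p = 5.1e-07), and its shNC_H2O2 level was higher still at 19.3 ± 1.44 CPM. The fringe gene MFNG passed (1.43) at levels below 1 CPM in every library.

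BMP signals act through SMAD1, SMAD5 and SMAD9 and raise the ID genes, which hold back differentiation. Of 18 tested members 5 rose and 11 fell, with a median of -0.35 and the same counts without both libraries. Members that rose included a ligand and an inhibitor of the pathway. BMP2, a ligand, was at 14, 12.3, 12.6 and 10.6 CPM in shNC and 30.9, 29.8, 33.4 and 32.5 CPM in shYAP1_H2O2 (1.36 ± 0.09, adjusted p = 2.0e-08). BAMBI, a receptor without kinase activity that blocks BMP and TGF-beta signals, rose from 4.95 ± 1.01 to 9.59 ± 1.06 CPM (0.96 ± 0.15), whereas shNC_H2O2 stood at 1.39 ± 0.207 CPM. The signal transducer SMAD9 fell from 4.29 ± 0.218 to 0.803 ± 0.127 CPM (-2.41 ± 0.19, adjusted p = 1.7e-07). Of the targets, ID3 (-2.08) and ID4 (-2.07), named here after their values were seen, fell beside ID1 and ATOH8.

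In the TGF-beta list 10 of 20 tested members rose and 3 fell (median 0.22), 11 rose and 5 fell without both libraries, and 10 and 5 did without shYAP1_H2O2 replicate 3. INHBA, which encodes the activin A subunit, was at 19, 17.7, 19.9 and 20.5 CPM in shNC and 38.4, 45.5, 38.7 and 42.7 CPM in shYAP1_H2O2 (1.10 ± 0.07, adjusted p = 1.7e-08). Its level in shNC_H2O2, 524 ± 15.8 CPM, was far above both. TGFBI, a secreted adhesion protein named for its induction by TGF-beta, fell from 1590 ± 30.4 to 622 ± 48.4 CPM (-1.35 ± 0.06, adjusted p = 9.6e-10). Members of 1 pathway thus moved both ways. Of 29 tested WNT genes 7 rose and 4 fell (median 0.04, from -0.05 without shYAP1_H2O2 replicate 3 to 0.16 without shNC replicate 4), among them the WNT inhibitor DKK1, which rose from 5.56 ± 0.292 to 11.4 ± 2.75 CPM, and the WNT enhancer RSPO3, which fell from 43.1 ± 2.5 to 26.4 ± 2 CPM. RSPO3 was at 2.08 ± 0.218 CPM in shNC_H2O2.

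**Figure D4:**
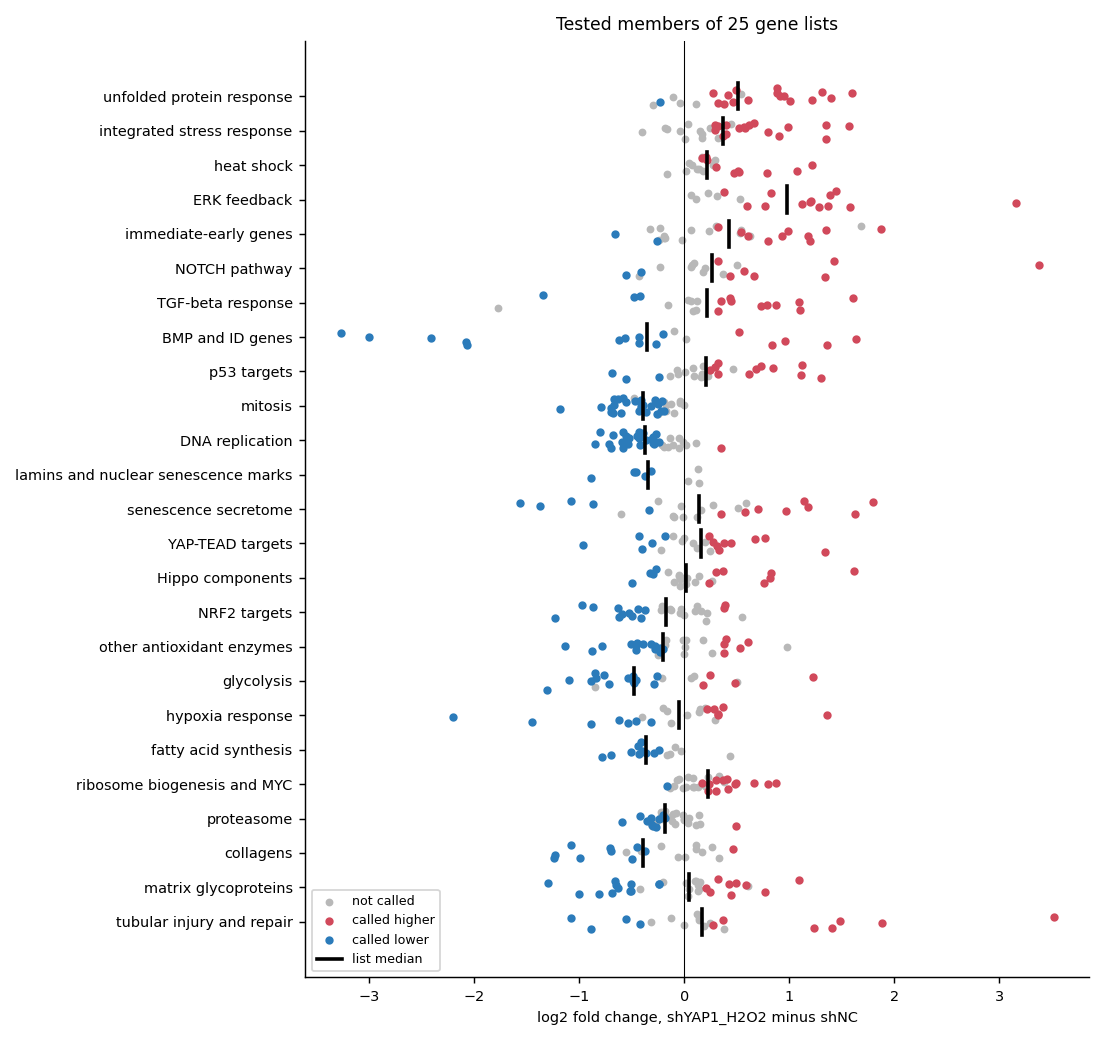
Log2 fold change of shYAP1_H2O2 minus shNC (x axis) for the tested members of 25 gene lists (rows), 1 point per gene, coloured by call, with the median of each list as a black bar. The stress response and ERK lists have medians of 0.21 to 0.98, and mitosis, DNA replication and glycolysis have medians of -0.39, -0.37 and -0.48.

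Genes of cell division were lower. Of 35 tested mitosis genes 0 rose and 25 fell, with a median of -0.39, and 30 fell without both libraries. KIF20A, a kinesin of cytokinesis, was at 85.4, 84.2, 81.9 and 106 CPM in shNC and 37.7, 35, 47.5 and 37 CPM in shYAP1_H2O2 (-1.18 ± 0.10, adjusted p = 2.6e-07). AURKA, a spindle kinase, fell from 154 ± 18.6 to 89.2 ± 11.6 CPM and CENPE, a kinetochore motor, from 84.2 ± 9.15 to 51.8 ± 3.73 CPM. MKI67, the proliferation marker Ki-67, was at 371, 390.1, 373 and 466 CPM and 264, 261, 425 and 255 CPM (-0.41 ± 0.14, adjusted p = 0.0352). The library of high mitochondrial share was the highest of each group, the groups overlapped, and the change was -0.62 without shYAP1_H2O2 replicate 3. The call for MKI67 was lost without shNC replicate 2 or 4 or shYAP1_H2O2 replicate 1, 2 or 4 (adjusted p of 0.0587 to 0.112).

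Of 36 DNA replication genes 1 rose and 25 fell (median -0.37), and 1 rose and 29 fell without both libraries. PCNA, the sliding clamp of DNA polymerases, was at 334, 323, 329.6 and 294 CPM in shNC and 213, 176, 186 and 201 CPM in shYAP1_H2O2 (-0.72 ± 0.07, adjusted p = 1.4e-06), with no overlap. POLA2 (-0.85) and CCNE2 (-0.80) fell further, with 35.1% and 37.1% of their exon bases in overlapping genes. The 1 member that rose was CDT1, a licensing factor of replication origins (0.35 ± 0.10, adjusted p = 0.0139, and 0.16 without both libraries).

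Marks of growth arrest did not all move one way. CDKN1A (ENSG00000124762, chromosome 6, 36676460 to 36687339), the CDK inhibitor p21 and a target of p53, was at 179.9, 168, 186 and 183 CPM in shNC and 288, 289, 301 and 273 CPM in shYAP1_H2O2, 1.61-fold higher (0.68 ± 0.06, adjusted p = 2.2e-07). LMNB1 (ENSG00000113368, chromosome 5, 126776623 to 126837020), lamin B1, was at 214, 216, 212 and 161 CPM and 117, 105, 97 and 114 CPM (-0.89 ± 0.09, adjusted p = 2.0e-06), and shNC_H2O2 lay between the groups at 145 ± 3.67 CPM. A list of 8 marks of senescence holds lamin and nuclear protein genes and GLB1, the lysosomal beta-galactosidase. Of these 0 rose and 5 fell (median -0.34), and 1 and 4 did when scaled by library totals alone. GLB1 was not called (0.13). CDKN2A, which encodes p16 and ARF, was at 144, 152, 149 and 185 CPM and 117, 114, 182 and 125 CPM and was not called (-0.22 ± 0.13, adjusted p = 0.197), but it passed as lower without shYAP1_H2O2 replicate 3 (-0.40, adjusted p = 0.00083) and without both libraries (-0.33, adjusted p = 2.0e-08). CDKN2B, which encodes p15, was at 12.3 ± 1.85 and 14.7 ± 1.64 CPM (0.25 ± 0.11, adjusted p = 0.0987) and passed as higher without the same library (0.32, adjusted p = 0.0335) and without both libraries (0.20, adjusted p = 0.0271). CDKN1C, which encodes p57, fell from 115 ± 17.1 to 65.1 ± 3.62 CPM (-0.82 ± 0.10, adjusted p = 8.4e-06). Of 10 CDK inhibitors and RB family genes 1 rose and 4 fell, and 2 and 6 did without shYAP1_H2O2 replicate 3 or without both libraries.

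Of 26 p53 targets 11 rose and 3 fell (median 0.21), and 13 rose and 4 fell without both libraries. GADD45A, a sensor of growth arrest and DNA damage, was at 81.3, 84.5, 87.2 and 63.3 CPM in shNC and 172, 184, 136 and 192 CPM in shYAP1_H2O2 (1.11 ± 0.12, adjusted p = 4.1e-06). BBC3, the cell death factor PUMA, rose from 9.12 ± 2.26 to 22.4 ± 3.35 CPM (1.30 ± 0.16) and the kinase gene PLK3 from 18.8 ± 3.77 to 40.7 ± 1.64 CPM. TP53I3, an oxidoreductase, fell from 6.84 ± 1.42 to 4.24 ± 0.247 CPM (-0.69 ± 0.14, adjusted p = 0.00158), whereas it stood at 13 ± 1.24 CPM in shNC_H2O2.

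Secreted factors of senescent cells also moved both ways, with 8 of 24 tested members higher and 5 lower (median 0.14, and 0.04 without shYAP1_H2O2 replicate 3). GDF15 (ENSG00000130513, chromosome 19, 18374731 to 18389176), a stress cytokine, was at 147, 149, 161 and 111 CPM in shNC and 477, 492, 530.3 and 478 CPM in shYAP1_H2O2, 3.48-fold higher (1.80 ± 0.09, adjusted p = 2.3e-09). Its level in shNC_H2O2 was 271 ± 10.8 CPM, in a window with a median of 0.36 for that group. CSF2, the growth factor GM-CSF, rose from 6.74 ± 1.1 to 20.8 ± 0.471 CPM (1.63 ± 0.10, adjusted p = 1.6e-08). The neutrophil chemokine CXCL8 was at 209.6, 179, 237 and 207 CPM and 369, 318, 293 and 369 CPM (0.70 ± 0.09, adjusted p = 2.0e-05), and a related chemokine, CXCL3, rose from 4.99 ± 0.558 to 11.3 ± 0.862 CPM. CXCL8 was nevertheless lower than in shNC_H2O2 (676 ± 18.9 CPM, -1.0, adjusted p = 2.4e-07).

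IL6, a cytokine of the senescence secretome, was at 100.5, 94.7, 109.5 and 156 CPM in shNC and 36.7, 36.2, 47.2 and 36.1 CPM in shYAP1_H2O2, 2.95-fold lower (-1.56 ± 0.14, adjusted p = 8.1e-07), and 20.7% of its exonic sequence is shared with another gene. All 4 libraries of shYAP1_H2O2 lay below all 4 of shNC, and the level in shNC_H2O2, 40.2 ± 1.14 CPM, was not called against shYAP1_H2O2 (-0.04). MMP1, interstitial collagenase, fell from 8.51 ± 0.939 to 3.3 ± 0.271 CPM (-1.37 ± 0.09, adjusted p = 2.9e-08), and shNC_H2O2 stood far higher at 126 ± 4.34 CPM. AREG, an EGF receptor ligand, was at 288, 258, 315 and 378 CPM in shNC and 139.6, 147, 153 and 145 CPM in shYAP1_H2O2 (-1.08 ± 0.09, adjusted p = 2.9e-07). The order was different for AREG, with shNC_H2O2 lowest at 26.3 ± 0.436 CPM.

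In the NF-kB list, which holds subunits of the factor and the genes that feed back on it, 7 of 18 rose and 6 fell (median 0.06, and -0.02 without shYAP1_H2O2 replicate 3), and 7 and 7 without both libraries. TNFAIP3 (ENSG00000118503, chromosome 6, 137867188 to 137883312), the ubiquitin-editing inhibitor A20, was at 39.7, 34.8, 36.6 and 37.7 CPM in shNC and 126, 126, 151 and 128 CPM in shYAP1_H2O2, 3.57-fold higher (1.83 ± 0.08, adjusted p = 3.9e-10). It stood at 28.1 ± 2.16 CPM in shNC_H2O2, below both groups. BIRC3, an inhibitor of cell death, fell from 107 ± 9.24 to 60.6 ± 8.5 CPM (-0.82 ± 0.09, adjusted p = 7.3e-06). Of 30 interferon response genes 9 rose and 4 fell (median 0.01, and -0.08 without shNC replicate 4, with 8 and 8 without both libraries and 8 and 2 without replicate 1 of either group), with IFI44L rising from 9.36 ± 1.74 to 21.6 ± 4.69 CPM. In the list of antigen presentation and complement 1 of 21 rose and 5 fell, and 1 and 10 without both libraries. CD55, which protects cells from complement, rose from 49.5 ± 11.6 to 110 ± 15.9 CPM (1.16 ± 0.15). The complement genes C3 and C1S fell from 717 ± 22.6 to 452 ± 72.3 CPM and from 37.6 ± 2.48 to 18.8 ± 2.51 CPM.

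Targets of YAP1 with TEAD had 9 of 22 tested members higher and 5 lower, with a median of 0.16 (0.10 without shNC replicate 2 or shYAP1_H2O2 replicate 3), and 12 higher and 6 lower without both libraries. CCN1, a matricellular protein, was at 1880, 1785, 1924 and 1634 CPM in shNC and 1608, 1560, 1600 and 1607 CPM in shYAP1_H2O2 (-0.18 ± 0.06, adjusted p = 0.0305). The groups did not overlap, but the call was lost without shNC replicate 1 or 3 or shYAP1_H2O2 replicate 1, 2 or 4 (adjusted p of 0.0612 to 0.102). CCN2 (ENSG00000118523, chromosome 6, 131948176 to 131951373), the connective tissue growth factor, was at 143, 121, 143 and 147 CPM and 176, 143, 224 and 178 CPM (0.38 ± 0.10, adjusted p = 0.0111), with overlapping groups and its highest value in the library of high mitochondrial share. ANKRD1, a cardiac ankyrin repeat protein, was at 68.9, 67.3, 71.5 and 91.9 CPM and 78.7, 85.6, 97.8 and 82.7 CPM and did not pass (0.20 ± 0.09, adjusted p = 0.111). It passed without shNC replicate 4 (0.31, adjusted p = 0.00154), without both libraries (0.24, adjusted p = 9.5e-06) and when scaled by library totals alone (0.23, adjusted p = 0.0222). AMOTL2, an angiomotin that binds YAP1, rose from 306 ± 9.4 to 369 ± 15.5 CPM (0.27 ± 0.05, adjusted p = 0.00143). F3, tissue factor, was at 53.7, 43.8, 51.5 and 55.7 CPM and 133, 115, 141 and 131 CPM (1.34 ± 0.08, adjusted p = 1.1e-08), the largest rise of the list. NUAK2, a kinase that supports YAP1 activity, was at 192, 181, 189.5 and 184 CPM and 293, 262, 366 and 269.9 CPM (0.67 ± 0.09, adjusted p = 2.2e-05), and DLC1, a GTPase-activating protein, rose from 83.3 ± 1.66 to 142 ± 7.18 CPM. IGFBP3, which binds insulin-like growth factors, fell from 105 ± 10.5 to 53.7 ± 7.73 CPM (-0.96 ± 0.10, adjusted p = 4.6e-06). AJUBA, an inhibitor of LATS kinases, fell from 285 ± 33.3 to 216 ± 32 CPM and CRIM1, which binds BMPs, from 282 ± 7.09 to 209 ± 3.71 CPM.

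Against shNC_H2O2 the members also moved both ways, with CCN2 at -0.67 and ANKRD1 at -0.91, and NUAK2 at 0.67, F3 at 1.19 and CCN1 at 0.20 (adjusted p of 0.0148 or less). Levels in shNC_H2O2 were 287 ± 6.61 CPM for CCN2 and 162 ± 4 CPM for ANKRD1, and NUAK2 lies in a window with a median of -0.33 for that group. The TEAD motif GGAATG (both strands) was present in the 250 bases before the start of 11.9% of all genes and in 9 of the 17 promoters found for the list, 6 of them of called genes. Of the 3 called members of largest change with the motif, NUAK2 and CCN2 rose and AJUBA (-0.4) fell. The promoter of AJUBA is not shown. Those of NUAK2 and CCN2 are shown with the motif in capitals (GRCh38.p14, 5′ to 3′ in the direction of the gene).
NUAK2 (chr1:205321746-205321995, minus strand): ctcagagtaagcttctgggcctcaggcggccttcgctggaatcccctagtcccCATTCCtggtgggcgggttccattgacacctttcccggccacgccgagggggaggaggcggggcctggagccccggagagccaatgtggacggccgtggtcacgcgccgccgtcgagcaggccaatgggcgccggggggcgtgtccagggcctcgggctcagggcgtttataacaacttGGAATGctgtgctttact
CCN2 (chr6:131951373-131951622, minus strand): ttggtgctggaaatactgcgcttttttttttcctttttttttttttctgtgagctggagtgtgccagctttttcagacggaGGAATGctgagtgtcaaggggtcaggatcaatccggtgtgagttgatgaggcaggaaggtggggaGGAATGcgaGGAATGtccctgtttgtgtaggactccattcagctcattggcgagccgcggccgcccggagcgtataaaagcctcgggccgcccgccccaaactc
The matches began 197 and 18 bases before the start in NUAK2, and 169, 104 and 95 bases before it in CCN2.

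Of 23 tested components of the Hippo pathway itself 7 rose and 4 fell (median 0.02, from -0.02 without shNC replicate 3 to 0.07 without shNC replicate 4), and 11 rose and 6 fell without both libraries. FRMD6, which acts upstream of the Hippo kinases, was at 90.8, 88.4, 88.2 and 75.5 CPM in shNC and 254, 319, 204 and 279 CPM in shYAP1_H2O2, 3.08-fold higher (1.62 ± 0.11, adjusted p = 5.2e-08). The protocadherin FAT4 rose from 32 ± 1.97 to 57 ± 2.07 CPM and AMOT, which holds YAP1 in the cytoplasm, from 14.8 ± 0.548 to 26 ± 2.09 CPM. WWC1, the scaffold KIBRA, fell from 215 ± 6.83 to 152 ± 5 CPM (-0.50 ± 0.05, adjusted p = 3.4e-06).

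NRF2 raises detoxifying and glutathione genes when oxidants disable its inhibitor KEAP1. Of 26 tested targets 2 rose and 11 fell, with a median of -0.17 (-0.11 without shYAP1_H2O2 replicate 4), and without both libraries 3 rose and 14 fell. NQO1 (ENSG00000181019), a quinone reductase, was at 96.4, 105, 105 and 85.6 CPM in shNC and 63.2, 65.4, 57.1 and 67.6 CPM in shYAP1_H2O2 (-0.63 ± 0.07, adjusted p = 1.0e-05). HMOX1, heme oxygenase, was at 33.5, 32.3, 32.3 and 28.1 CPM and 23, 21.3, 26.5 and 22.5 CPM (-0.44 ± 0.08, adjusted p = 0.00098). Neither gene overlapped between the groups, and both stood lower again in shNC_H2O2, at 49.4 ± 1.1 and 11.9 ± 0.685 CPM. GCLM, the modifier subunit of glutathione synthesis, was at 85.2, 77.4, 83.3 and 73.6 CPM and 43.6, 46.3, 38.8 and 46.4 CPM (-0.87 ± 0.08, adjusted p = 5.6e-07). The aldo-keto reductase AKR1B1, an abundant gene, fell from 3177 ± 141 to 1353 ± 64.4 CPM (-1.23 ± 0.06, adjusted p = 9.1e-10), and AKR1C1 from 1.58 ± 0.188 to 0.804 ± 0.0988 CPM. TXNRD1, thioredoxin reductase, was at 342, 322, 349 and 275 CPM and 401, 411, 283 and 407 CPM and did not pass (0.22 ± 0.10, adjusted p = 0.118). It passed without shYAP1_H2O2 replicate 3 (0.34, adjusted p = 0.0014) and without both libraries (0.26, adjusted p = 8.2e-08). The calls of the 2 targets that rose were lost without single libraries, and 0 targets rose without shNC replicate 4. FTH1, ferritin heavy chain (0.39, 0.17 without shYAP1_H2O2 replicate 3), has 62.4% of its exon bases in other genes and lost its call without any 1 shNC library. OSGIN1 (0.38) lost its call without shNC replicate 4 or shYAP1_H2O2 replicate 2 or 3 (adjusted p of 0.0539 to 0.0601).

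The antioxidant response element TGACNNNGC (both strands) was present in 10.9% of all promoters and in 5 of the 20 found for the NRF2 list, 2 of them of called genes. The promoter of GCLM is shown as that of a called member with the element, in capitals (GRCh38.p14, 5′ to 3′ in the direction of the gene), which began 34 bases before the start.
GCLM (chr1:93909431-93909680, minus strand): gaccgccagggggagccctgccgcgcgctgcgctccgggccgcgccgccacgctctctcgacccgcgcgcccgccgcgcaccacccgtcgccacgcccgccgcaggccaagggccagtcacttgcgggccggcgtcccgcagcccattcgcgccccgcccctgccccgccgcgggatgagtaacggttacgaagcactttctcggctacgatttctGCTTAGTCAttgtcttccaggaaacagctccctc

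Of 29 other antioxidant enzymes 5 rose and 14 fell (median -0.20), with 9 falling when libraries were scaled by their totals alone. SOD2, the superoxide dismutase of mitochondria, was at 862, 824, 832 and 613 CPM in shNC and 404, 319, 291 and 408 CPM in shYAP1_H2O2, 2.2-fold lower (-1.14 ± 0.12, adjusted p = 3.5e-06). All shYAP1_H2O2 libraries lay below all shNC libraries and above shNC_H2O2 (174 ± 6.94 CPM). PRDX1, a peroxiredoxin, was at 635 ± 170 and 370 ± 103 CPM (-0.78 ± 0.23, adjusted p = 0.0208), with 24.9% overlap with other genes and the lowest value of each group in the library of high mitochondrial share. Its call was lost without shNC replicate 1, 2 or 3 (adjusted p of 0.0511 to 0.0558). GPX3, a secreted glutathione peroxidase, rose from 76 ± 10.7 to 116 ± 37 CPM (0.61 ± 0.17), or 0.38 without shYAP1_H2O2 replicate 3. MGST1, a membrane glutathione transferase (-0.88 ± 0.31, adjusted p = 0.0485), was -0.47 without shNC replicate 4, and its call was lost without that library or shYAP1_H2O2 replicate 1, 2 or 4.

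Glycolysis genes were mostly lower, with 4 of 23 tested members higher and 14 lower and a median of -0.48. HK2, the inducible hexokinase of the first step, was an exception. It was at 68.5, 67.9, 71.1 and 57.2 CPM in shNC and 156, 172, 130.4 and 160.1 CPM in shYAP1_H2O2 (1.23 ± 0.08, adjusted p = 4.2e-08), above shNC_H2O2 (61.5 ± 0.848 CPM) too. Downstream, PGAM1, phosphoglycerate mutase, was at 879, 877, 909 and 549.9 CPM and 341, 329, 277 and 354 CPM (-1.31 ± 0.13, adjusted p = 2.6e-06). LDHA, which makes lactate, was at 1557, 1500, 1587 and 2181 CPM and 766, 790, 846 and 789 CPM (-1.10 ± 0.10, adjusted p = 5.6e-07). In shNC replicate 4, the library of high mitochondrial share, PGAM1 was low and LDHA high, yet neither gene overlapped between the groups. Of 22 genes of the hypoxia response 6 rose and 7 fell (median -0.05, and 0.02 without shYAP1_H2O2 replicate 3). ANGPTL4, an inhibitor of lipoprotein lipase, rose from 3.59 ± 0.694 to 9.21 ± 0.314 CPM, while EGLN3, a HIF prolyl hydroxylase, fell from 12 ± 1.73 to 4.39 ± 0.386 CPM and LOX, which crosslinks collagen, from 55.9 ± 3.5 to 30.2 ± 1.48 CPM.

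Genes of fatty acid synthesis were mostly lower as well. Of 15 such genes 0 rose and 10 fell (median -0.36, with 1 and 8 without shYAP1_H2O2 replicate 2). SREBF1, the factor that drives the pathway, was at 174, 176, 166 and 138 CPM in shNC and 106, 88.8, 112 and 96.2 CPM in shYAP1_H2O2 (-0.70 ± 0.09, adjusted p = 1.5e-05), and SCD, which desaturates fatty acids, was at 1438, 1403, 1496 and 1626 CPM and 868, 786, 943 and 867 CPM (-0.78 ± 0.07, adjusted p = 3.9e-07). The groups did not overlap for either gene. CPT1A, which brings fatty acids into mitochondria for oxidation, rose from 5.73 ± 0.882 to 10.8 ± 1.36 CPM (0.92 ± 0.12, adjusted p = 3.7e-05). Of 24 cholesterol synthesis genes 3 rose and 8 fell (median -0.13), and 6 and 13 without both libraries, with HMGCS1 rising from 57 ± 5.01 to 73.6 ± 8.86 CPM.

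Counts for the respiratory chain moved with the 2 libraries of high mitochondrial share. Of 30 nuclear genes of the chain 1 rose and 5 fell, against 2 and 15 without both libraries, 2 and 9 without shNC replicate 4 and 1 and 3 without shYAP1_H2O2 replicate 2. Of 13 mitochondrially encoded protein genes 0 were called by edgeR and 0 by DESeq2, and 0 had an unadjusted p under 0.05 (median -0.46), while 10 fell without both libraries (median -0.33). The median was 0.19 without shNC replicate 4 alone and -1.04 without shYAP1_H2O2 replicate 3 alone, and -0.31 to -0.65 without any other single library of the 2 groups. MT-RNR1, the small ribosomal RNA of mitochondria, was at 534, 714, 510.5 and 1014 CPM in shNC and 1712, 1617, 3552 and 1708 CPM in shYAP1_H2O2 and was called as higher (1.63 ± 0.30, adjusted p = 0.00152), and its change was 1.51 without both libraries. Libraries were selected by poly(A) tails, and the recovery of this RNA was not tested.

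Matrix genes fell more than they rose among collagens, with 1 of 20 tested members higher and 9 lower (median -0.39), 2 and 9 without shYAP1_H2O2 replicate 3, and 2 and 12 without both libraries. COL8A1, a short-chain collagen, was at 175, 168, 176 and 189 CPM in shNC and 74.9, 66.2, 80.3 and 77.4 CPM in shYAP1_H2O2 (-1.24 ± 0.07, adjusted p = 2.6e-09). Fibronectin, FN1, among the most abundant transcripts, was at 9014, 8965, 9798 and 11940 CPM and 9616, 9107, 12990 and 9160 CPM and was not called (0.04 ± 0.12, adjusted p = 0.822). All 4 shNC_H2O2 libraries lay above these, at 20968 ± 1360 CPM in a window with a median of 0.21 (-1.04 for shYAP1_H2O2 minus shNC_H2O2, adjusted p = 3.7e-06). Among 33 matrix glycoproteins and proteoglycans 9 rose and 12 fell (median 0.05, from -0.05 without shYAP1_H2O2 replicate 3 to 0.12 without shNC replicate 1). HSPG2, perlecan of the basement membrane, fell from 352 ± 28.2 to 143 ± 22.5 CPM (-1.30 ± 0.09, adjusted p = 7.4e-08) and EFEMP1, fibulin-3, from 45.2 ± 8.88 to 22.6 ± 3.83 CPM, while DCN, decorin, rose from 0.691 ± 0.196 to 1.47 ± 0.31 CPM. Of 23 metalloproteinases and their inhibitors 8 rose and 8 fell. MMP9, a gelatinase, rose from 1.71 ± 0.298 to 4.3 ± 0.429 CPM and ADAMTS6 from 2.08 ± 0.339 to 5.24 ± 0.773 CPM, whereas ADAMTS2, which trims procollagen, fell from 6.33 ± 0.875 to 2.12 ± 0.474 CPM. Of 15 integrins 3 rose and 6 fell, and 5 and 7 did without both libraries, with ITGA4 falling from 14.3 ± 1.15 to 5.62 ± 0.302 CPM (-1.34 ± 0.11).

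Epithelial and mesenchymal markers were mixed. Of 30 junction genes 9 rose and 6 fell (median 0.13, from 0.02 without shNC_H2O2 replicate 2 or 4 to 0.26 without shNC replicate 1, and 0.24 without shNC replicate 4). Without shYAP1_H2O2 replicate 3 or 4 the median was 0.04 or 0.06. CLDN2, the cation-pore claudin of the proximal tubule, was at 43.1, 37.3, 30 and 42.3 CPM in shNC and 97.5, 68.4, 122 and 93.8 CPM in shYAP1_H2O2 (1.32 ± 0.15, adjusted p = 1.6e-05), CLDN3 rose from 0.935 ± 0.293 to 2.56 ± 0.479 CPM and CGN, cingulin, from 13.1 ± 2.08 to 27.6 ± 1.16 CPM. CDH1, E-cadherin, was low and fell, from 5.2, 6.25, 5.05 and 6.72 CPM to 3.14, 2.65, 4.6 and 2.06 CPM (-0.91 ± 0.20, adjusted p = 0.0026). VIM, vimentin, did not pass (0.02 ± 0.13, adjusted p = 0.915, with 24.4% overlap with other genes). Among 18 keratins and regulators of the epithelial to mesenchymal transition 5 rose and 1 fell (median 0.07, with 6 and 4 without both libraries and 5 and 3 without shNC replicate 4, which moved the median to 0.17, against -0.01 without shYAP1_H2O2 replicate 3). SNAI2, the repressor SLUG, was at 58, 54.6, 62.6 and 84.5 CPM and 134, 161, 197 and 151 CPM (1.31 ± 0.14, adjusted p = 5.4e-06), ZEB1 rose from 14.5 ± 2.14 to 30.3 ± 3.12 CPM, and ESRP1, an epithelial splicing factor, fell from 11.5 ± 0.972 to 5.8 ± 0.851 CPM.

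Of 20 genes of tubular injury and repair 7 rose and 4 fell (median 0.16, and 0.04 without shYAP1_H2O2 replicate 3). HAVCR1, the injury marker KIM-1, was at 342, 333, 340.3 and 502 CPM in shNC and 193, 183, 257 and 187 CPM in shYAP1_H2O2 (-0.89 ± 0.13, adjusted p = 0.00012). LCN2, the injury marker NGAL, was at 12.5, 11, 12.7 and 22.6 CPM and 13.2, 11.2, 28.3 and 14.5 CPM and was not called (0.19 ± 0.28, adjusted p = 0.642). For both genes the library of high mitochondrial share was the highest of its group. VCAM1, an adhesion molecule of injured tubule cells, was at 38, 32.4, 30.9 and 28 CPM and 134, 110.5, 101 and 130.5 CPM (1.88 ± 0.10, adjusted p = 3.3e-09), and LHX1, a factor of nephron development, rose from 44.4 ± 1.24 to 124 ± 15.6 CPM (1.48 ± 0.08, adjusted p = 2.3e-09). VCAM1 and LHX1 stood higher still in shNC_H2O2, at 197 ± 3.08 and 259 ± 3.71 CPM, and HAVCR1 and LCN2 lower, at 78.4 ± 2.04 and 4.47 ± 0.269 CPM.

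A set of genes stood apart from both other groups and not only from shNC. In the contrast with shNC_H2O2, 43.0% of tested genes were called, and in shNC_H2O2 minus shNC 46.6%. These contrasts share libraries with the main one, so their values are given side by side and not counted together. CYP24A1 (ENSG00000019186, chromosome 20, 54153449 to 54173973), the vitamin D 24-hydroxylase, was at 73.2, 67.4, 71.2 and 73.1 CPM in shNC and 19.1, 17.3, 20.9 and 18.3 CPM in shYAP1_H2O2, 3.77-fold lower (-1.91 ± 0.07, adjusted p = 9.2e-11), and at 93.6 ± 5.92 CPM in shNC_H2O2 (-2.31, adjusted p = 5.9e-12). IL23A, a subunit of interleukin 23, was at 16.1, 15.5, 18.6 and 14.5 CPM and 69.4, 74.4, 68.7 and 70.7 CPM (2.13 ± 0.08, adjusted p = 9.1e-11), and at 22.4 ± 1.03 CPM in shNC_H2O2 (1.66, adjusted p = 2.4e-10). ATP6V0D2 (ENSG00000147614), a subunit of the vacuolar proton pump, was at 4.57, 5.43, 4.6 and 4.85 CPM and 32.7, 39.1, 27.9 and 35.3 CPM (2.79 ± 0.15, adjusted p = 2.9e-09), with shNC_H2O2 at 4.41 ± 1.08 CPM. For each of these 3 genes the 4 shYAP1_H2O2 libraries lay on one side of all 8 others. Genes of this set were picked for no overlap with shNC and for calls in the same direction against both groups. Such a separation is therefore largely set by the choice, and its share over all genes was not counted.

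Other genes with levels in shYAP1_H2O2 above both groups had diverse roles. CPEB2, which binds cytoplasmic polyadenylation elements, was at 37 ± 4.83 CPM in shNC, 41.4 ± 2.31 in shNC_H2O2 and 135 ± 4.55 in shYAP1_H2O2, and lies in a window with a median of -0.44 for shNC_H2O2 minus shNC. KCNJ15, a potassium channel, was at 7.35 ± 1.04, 5.03 ± 1 and 27.3 ± 4.55 CPM in the same order, in a window with a median of 0.41. The muscarinic receptor CHRM3 was at 2.49 ± 0.163, 3.16 ± 0.379 and 9.27 ± 1.01 CPM, in a window with a median of -0.26. PLXDC2, a plexin-domain membrane protein, was at 8.97 ± 1.74, 3.83 ± 0.732 and 26.5 ± 5.98 CPM.

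Below both groups, CCBE1, a secreted factor of lymphatic growth, was at 96.5 ± 7.48, 128 ± 6.06 and 39.8 ± 2.86 CPM in shNC, shNC_H2O2 and shYAP1_H2O2. COL12A1, a fibril-associated collagen, was at 54.9 ± 6.4, 66.7 ± 5.17 and 26 ± 1.35 CPM. DOCK2, an activator of RAC best known from leukocytes, was at 7.55 ± 0.772, 14.6 ± 0.815 and 3.07 ± 0.531 CPM, and XKR7 at 9.79 ± 0.967, 11.5 ± 0.519 and 4.3 ± 0.448 CPM. ITGB6, the integrin chain that activates latent TGF-beta, was at 11.3 ± 0.707, 55.7 ± 3.1 and 5.3 ± 0.538 CPM, and 20.6% of its exonic sequence is shared with another gene. ITGB6 thus differed from shNC by -1.08 and from shNC_H2O2 by -3.39, with the latter group on the other side of shNC (2.31). CLSTN2, a synaptic calsyntenin, also fell against shNC (-1.06) but lay between the other groups and not below both. It was at 948 ± 115 CPM in shNC, 18.2 ± 0.61 in shNC_H2O2 and 454 ± 50.8 in shYAP1_H2O2, in a window with a median of -0.59.

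**Figure D5:**
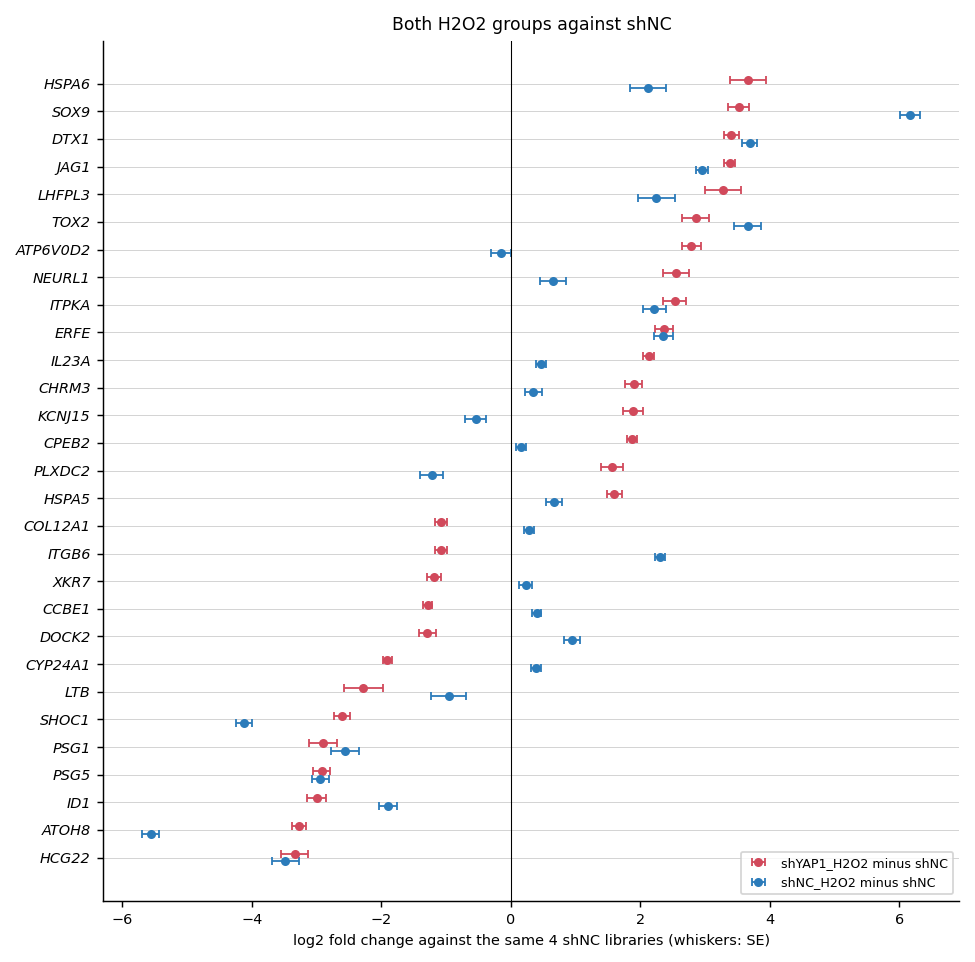
Log2 fold change against the same 4 shNC libraries (x axis, whiskers are SE) of shYAP1_H2O2 (red) and shNC_H2O2 (blue) for 29 named genes (rows). JAG1 and ERFE lie on the same side of 0 in both groups, and SOX9 and ATOH8 lie further from 0 in shNC_H2O2. KCNJ15, PLXDC2, ITGB6 and CYP24A1 lie on opposite sides of 0. ATP6V0D2 does too, but its shNC_H2O2 value (-0.15 ± 0.15) was not called.

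The other lists gave the following counts. Of 36 genes of axon guidance and neuronal signalling 15 rose and 6 fell (median 0.26, and 0.13 without shNC replicate 2 or shYAP1_H2O2 replicate 3). SEMA3F, a secreted semaphorin, was at 31.6, 31.4, 34 and 26.6 CPM in shNC and 104, 99.1, 126 and 100.3 CPM in shYAP1_H2O2 (1.80 ± 0.09, adjusted p = 1.6e-09), and DOC2B, a calcium sensor of vesicle release, rose from 0.483 ± 0.213 to 3.45 ± 0.281 CPM. The list of metallothioneins, which bind zinc and copper, also holds the factor MTF1 and the zinc transporters SLC30A1 and SLC39A10. Of its 9 tested members 2 rose and 4 fell. The 2 that rose were MTF1 (0.3) and SLC30A1 (0.69), and no metallothionein was called higher. SLC39A10 (-0.3) was among the 4 that fell. MT1E fell from 217 ± 83.8 to 86.3 ± 22.7 CPM and MT1M from 10.5 ± 1.79 to 5.1 ± 1.14 CPM, and reads of these similar genes may be split. Of 15 genes of the IGF system 2 rose and 7 fell (median -0.25), of 29 lysosome and autophagy genes 8 rose and 3 fell, and of 23 actin and SRF targets 1 rose and 4 fell. Without both libraries the last 3 counts became 3 and 11, 13 and 8, and 3 and 12, and without shNC replicate 4 alone the lysosome and actin counts became 9 and 6, and 2 and 7. Among 17 prostaglandin genes 5 rose and 5 fell. In the EGF family list 2 of 16 tested members rose and 4 fell. That list also holds ADAM10, ADAM17, ERRFI1 and LRIG1, which are not ligands or receptors of the family. ADAM10 (-0.27) and ERRFI1 (-0.19) were among the 4 that fell. Counts in 4 further lists moved with single libraries. Of 17 BCL2 family genes 5 rose and 3 fell, with 1 falling without shNC replicate 1 or 3 or shYAP1_H2O2 replicate 2, 6 falling without shNC replicate 4, and 8 and 6 without both libraries. Of 15 iron genes 5 rose and 4 fell, with 3 rising without shNC replicate 1 or 2, and 8 and 5 without both libraries. Of 21 ferroptosis genes 5 rose and 6 fell, with 3 rising without shNC replicate 1 or 2 or shYAP1_H2O2 replicate 2. Of 21 genes of fatty acid oxidation and its regulators 3 rose and 5 fell. The counts were 4 and 9 without shNC replicate 4, and 4 and 11 without both libraries. The 3 that rose were CPT1A and the regulators PPARA (0.41) and PDK4 (0.47).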

How the data were processed

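The deposited files hold raw counts per gene, 1 table of 40649 Ensembl genes for each of 12 libraries. According to the submitters' processing notes, HISAT2, featureCounts, Subread and DESeq2 and the build GRCh38 (hg38) were used by the authors. The titles call the YAP1 hairpin libraries YH and the file headers HY, and each file was assigned by its sample record, with groups taken from the genotype and treatment labels. Per the labels' protocols, mRNA was taken up on oligo(dT) beads. Whether counting used strand is not stated. Symbols came from a table of gene names (40555 genes) and GENCODE 29 (85 genes).

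Of the 40649 genes 2049 had no count in any library and 19268 passed edgeR's filterByExpr and were tested. One quasi-likelihood model (edgeR 4.0.16, limma 3.58.1, R 4.3.3, robust, TMM factors, 3 groups, no covariate) was fitted to all 12 libraries, so that the groups shared 1 estimate of spread (common dispersion 0.0163, 9 residual degrees of freedom). A gene was called where its p, adjusted over all tested genes by the Benjamini-Hochberg method, was under 0.05, and all adjusted p-values in the text come from this model unless an alternative is named. YAP1 was also tested by an exact permutation of 8 libraries. The model was tested on simulated counts. Windows of 20 Mb and the share of exon bases that other genes overlap used GENCODE positions. Promoters, the 250 bases before a start, came from RefSeq (GRCh38.p14).

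Gene lists (53 lists, 1201 of 1207 entries matched), the groups compared and the tests were chosen with earlier results of these data known. Named genes were YAP1, a panel of 25 genes, the 12 largest rises and falls, the 8 rises and 8 falls furthest from both other groups or shared by both H2O2 groups, and up to 3 called members of largest rise and of largest fall from each list. All of these sets of rises and falls needed groups without overlap and at least 5 CPM in the higher group. List members needed 1 CPM, and YAP1 and the panel had no such condition. The text names a selection of these, and some members are not reported here. Alternatives were RLE factors, library totals alone, DESeq2 1.42.0, other filters on low counts, only the 8 libraries, a replicate block, no mitochondrially encoded genes, and libraries left out. Leaving out shNC_H2O2 libraries was added after seeing the data.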

Additional observations from a re-analysis of the deposited data

Results flagged for a closer look

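In 48 of the values looked at (174 genes and library measures in 2 groups), 1 library of 4 lay so far from the other 3 that its gap exceeded Dixon's critical value. Chance alone gives such a gap in about 1 of 20 groups. Of the 48 values, 23 were in shNC replicate 4 and 18 in shYAP1_H2O2 replicate 3, the libraries with 13.86% and 11.34% of counts from mitochondrially encoded genes, which were themselves 2 of these values.

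In shNC replicate 4 the level stood above the other libraries of its group for HAVCR1 (501.6 CPM, others 332.7 to 342.2), LCN2 (22.57 CPM, others 10.97 to 12.71), VIM (769.7 CPM, others 495.8 to 532), PSG3 (19.81 CPM, others 14.56 to 15.45) and HSPA1B (55.17 CPM, others 37.62 to 40.38). The same held for KIF20A (105.6 CPM, others 81.94 to 85.36), AURKA (181.7 CPM, others 141.9 to 148.2), IGFBP3 (120.2 CPM, others 97.52 to 101), MGST1 (413.2 CPM, others 165.7 to 188.3) and LDHA (2181 CPM, others 1500 to 1587). The same held for MT1E (342.2 CPM, others 164.5 to 188.7) and MYC (415.7 CPM, others 319.8 to 330.6). It stood below them for LMNB1 (160.7 CPM, others 212.3 to 215.8), SOD2 (612.9 CPM, others 823.6 to 861.9), ERFE (18.58 CPM, others 20.95 to 21.05), SLC3A2 (86.55 CPM, others 138.9 to 149.4) and BBC3 (5.726 CPM, others 10.18 to 10.33). Low values were also seen for AJUBA (235.7 CPM, others 298.9 to 306.4), FRMD6 (75.46 CPM, others 88.2 to 90.79), PRDX1 (380 CPM, others 710.3 to 736.1), PGAM1 (549.9 CPM, others 877.2 to 909.2) and ITGA3 (1078 CPM, others 1329 to 1364).

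In shYAP1_H2O2 replicate 3 the level stood above the other libraries of its group for AMOTL2 (391.6 CPM, others 359.2 to 364.6), CDKN2A (182.4 CPM, others 114.4 to 124.8), MKI67 (424.7 CPM, others 255.3 to 263.6), IL6 (47.18 CPM, others 36.07 to 36.69) and HAVCR1 (257.2 CPM, others 183 to 193.1). High values were also seen for FN1 (12990 CPM, others 9107 to 9616), NR1D1 (67.61 CPM, others 31.44 to 35.39), PSG1 (12.32 CPM, others 6.289 to 7.296), MT-RNR1 (3552 CPM, others 1617 to 1712) and AURKA (106.5 CPM, others 82.12 to 85.71). High values were also seen for TNFAIP3 (150.8 CPM, others 125.9 to 127.7), FTH1 (361.4 CPM, others 214.6 to 221.4) and MGST1 (193.8 CPM, others 97.71 to 111.4). It stood below them for TXNRD1 (283.4 CPM, others 401.2 to 411.3), AJUBA (168.4 CPM, others 226.4 to 237.4), PRDX1 (215.2 CPM, others 415.4 to 428.2) and HMGB2 (188.4 CPM, others 239.9 to 246.7).

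In shNC replicate 2 CCN2 (121.2 CPM, others 143.3 to 147.4) stood below the rest of the group. In shNC replicate 3 XBP1 (96.16 CPM, others 86.98 to 88.42) and AKR1C1 (1.859 CPM, others 1.455 to 1.521) stood above the rest of the group. In shYAP1_H2O2 replicate 1 HTR1D (4.158 CPM, others 5.653 to 5.829) stood below the rest of the group. In shYAP1_H2O2 replicate 2 CCN1 (1560 CPM, others 1600 to 1608), LHFPL3 (8.242 CPM, others 12.29 to 12.77) and HPGD (6.683 CPM, others 8.368 to 8.715) stood below the rest of the group.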

How the results depend on the processing

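Counts of called genes stayed within 1.5 times under every alternative, apart from those named here. Without the pair of libraries rich in mitochondrial counts, lower calls numbered 4455. Among genes that averaged 5 CPM or more in 1 group, a set with fewer genes tested, 261 were at least 2-fold higher and 152 at least 2-fold lower. Of genes called between shYAP1_H2O2 and shNC there were 6274 with RLE factors, 5994 with library totals alone, 6783 with DESeq2, 5626 with no filter, 5216 with the 5 CPM filter, 4950 with only the 8 libraries and 6239 without mitochondrially encoded genes. Higher calls were 53.7% of calls with TMM and 51.3% to 57.4% with the other scalings, which moved the median of all genes by at most 0.02.

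Leaving out single libraries gave 5346 to 7298 called genes, 2844 to 3764 higher, 2419 to 3534 lower, 585 to 649 at least 2-fold higher and 470 to 569 at least 2-fold lower. It gave 7196 to 9684 called genes between shYAP1_H2O2 and shNC_H2O2, 8067 to 10038 between shNC_H2O2 and shNC, and log2 fold changes of -0.09 to 0.02 for YAP1. The fit with a replicate block called 5731 genes. Deviations of same-numbered libraries of shNC and shYAP1_H2O2 had correlations of 0.09, 0.10, -0.21 and -0.22, and the numbers were not taken as a pairing. The last 2 values each involve 1 library of high mitochondrial share. Those 2 libraries, numbered differently, had the highest correlation, 0.39. Differently numbered pairs without either of them had 0.06 to 0.13, near the values of 0.09 and 0.10. Of 161 named called genes 160 kept call and direction without both libraries, and 0 gene values reversed their call under any alternative. CCN1, MKI67, SEC61B, CDT1, FTH1, OSGIN1, GPX3, MGST1 and PRDX1 lost their call under at least 1 alternative, and WWTR1, ANKRD1, CDKN2A, CDKN2B and TXNRD1 gained one; the cause was not tested. Genes with levels below about 1 CPM are limited by depth.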

Other observations

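The insulin receptor substrates IRS1 and IRS2, which pass signals of the insulin and IGF receptors on to PI3 kinase, rose from 82.3 ± 5.17 to 125 ± 6.47 CPM (0.60 ± 0.06, adjusted p = 2.0e-06 by edgeR) and from 79.9 ± 4.69 to 155 ± 7.74 CPM (0.96 ± 0.06, adjusted p = 2.2e-08). IGF1R, the receptor upstream of them, fell from 95.5 ± 2.1 to 72.9 ± 3.83 CPM (-0.39 ± 0.06, adjusted p = 6.4e-05). HBEGF, an EGF receptor ligand, rose from 22.5 ± 1.02 to 29 ± 1.63 CPM (0.36 ± 0.07), and HRK, a cell death activator of the BCL2 family, from 2.3 ± 0.318 to 5.66 ± 0.658 CPM (1.30 ± 0.13). HPGD, which inactivates prostaglandins, rose from 4.78 ± 0.545 to 8.04 ± 0.918 CPM (0.75 ± 0.12) and stood at 19.5 ± 1.95 CPM in shNC_H2O2.

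HMGB2 and HMGB3, chromatin proteins, fell from 321 ± 61.5 to 230 ± 27.6 CPM (-0.48 ± 0.12, adjusted p = 0.00745) and from 97 ± 6.96 to 70.6 ± 4.83 CPM (-0.46 ± 0.07). For HMGB2 the groups overlapped, through shNC replicate 4. Among integrin chains ITGA3, a laminin receptor, rose from 1276 ± 133 to 1654 ± 78.2 CPM (0.37 ± 0.07, adjusted p = 0.00112), while ITGA5, the fibronectin receptor chain, fell from 160 ± 11.4 to 108 ± 3.63 CPM (-0.57 ± 0.06, adjusted p = 4.2e-06).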
